A study of Mus musculus with 8 samples.

Results

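Autophagy delivers cytoplasm, worn organelles and some engulfed microbes to lysosomes in a double-membrane vesicle, the autophagosome. The small ubiquitin-like proteins of the Gabarap and LC3 families are joined to a membrane lipid on the growing vesicle, where they hold cargo receptors and take part in its growth, closure and fusion with lysosomes. Macrophages also place LC3 on phagosomes that hold microbes, a process that shares the conjugation enzymes of autophagy. A transcript ratio measures RNA only, and neither lipid joining nor flux through the pathway was measured here.

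10 genes were followed: Gabarap, Gabarapl1 and Gabarapl2 of the Gabarap family, Map1lc3a and Map1lc3b of the LC3 family, the cargo receptor gene Sqstm1, and Becn1, Ulk1, Wipi1 and Atg5 of the machinery that starts and extends the vesicle. They are 10 of the 27376 gene names on the array and were taken by name, with every probe of each gene, by a rule that uses no measured value, though the list itself was drawn up with earlier results of these data known. They have 17 of the 41174 probes, and 14 of these 17 are among the 21292 probes that passed the filter on low signal (2 or more arrays with either dye well above background). The other 3 did not pass: the second probes of Gabarapl2 (A_52_P2015) and Becn1 (A_52_P625594) were well above background on 0 of 8 arrays, and the second probe of Wipi1 (A_52_P497534) on 1 array in the treated channel alone. The other probe of Wipi1 passed although it was dim. It is described with that limit and no test of it is read, though the counts over the 14 probes include it.

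RAW 264.7, a macrophage-like mouse line of BALB/c origin, was kept with Lactobacillus acidophilus MTCC-10307 or with Bacillus clausii MTCC-8326 at 100 bacteria per cell, or left untreated. RNA was taken at 1, 2, 4 and 6 h, and equal amounts from 3 cultures were pooled. On each of the 8 two-colour arrays, 1 per bacterium and time, the treated pool carried Cy5 and the untreated pool of the same time carried Cy3, so every value compares treated with untreated RNA as a log2 ratio. The dyes were never exchanged, and a dye effect of a probe cannot be told apart from its mean response. Each bacterium has a slide and a scan of its own, and each time has its own place on the slides. The sources used here do not give whether the same untreated pool served both bacteria, so the values of the 2 bacteria are set side by side and not taken as independent.

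The share of probes well above background was 42% to 47.4% for untreated RNA and 39.6% to 51.5% for treated RNA. No spot was saturated, and the 17 spots of the 10 genes carried no flag. For 158 probes spotted more than once, repeated spots had an SD of 0.09 to 0.14 log2 units within an array. 8 of 10 macrophage marker genes, Adgre1, Csf1r, Cd68 and Spi1 among them, were well above background in untreated cells on all 8 arrays, Itgam was so on 3 and Mrc1 on none. None of 4 fibroblast and 4 epithelial markers was so on all 8 arrays, while Lck of the T cell list was, and the part of such transcripts in the results was not tested. On the 6 h B. clausii array the median of the 14 probes was -0.43, against -0.22 to -0.10 on the other 7, and the SD over all probes was the widest of the 8 arrays at 0.30. Results that rest on that array are given without it as well.

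The probes are 60-base sequences, and their letters matter here because the family members resemble each other. Of the 136 pairs among the 17 probes, 1 pair was alike in more than 60% of an ungapped overlap of at least 30 bases. It joins a Gabarap and a Gabarapl1 probe, which share 43 of 55 overlapping bases (78.2%). Both are printed 5′ to 3′ with the shared bases in capitals.

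Gabarap A_52_P558188: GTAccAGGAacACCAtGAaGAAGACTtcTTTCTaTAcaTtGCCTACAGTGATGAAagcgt

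Gabarapl1 A_51_P304757: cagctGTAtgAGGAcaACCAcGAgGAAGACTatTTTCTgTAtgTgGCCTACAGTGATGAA

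Another sequence is shown because it gave the lowest mean ratio of the 10 genes under the main processing. It had no such likeness to any other of the probes.

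Gabarap A_51_P295312: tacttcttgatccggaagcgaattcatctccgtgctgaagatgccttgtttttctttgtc

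The files place these probes on build mm9. Gabarap A_51_P295312 lies at chr11:69806095-69806154 on the plus strand. Gabarap A_52_P558188 runs from chr11:69806196-69808013, a span of 1818 bases for 60 bases of probe, so it bridges an intron. Gabarapl1 A_51_P304757 likewise spans 2473 bases at chr6:129488695-129491167, and the other Gabarapl1 probe, A_52_P633410, lies without a gap at chr6:129492254-129492313. Which exon or untranslated region a probe lies in was not annotated in the files used here.

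2 further probes held the polyadenylation signal AATAAA near their 3′ end, a sequence that stands close to the end of most transcripts. Their last 30 bases are shown with the signal in capitals.

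Sqstm1 A_51_P119077: tggtttgtaagtaacctgtAATAAAatgcc

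Ulk1 A_52_P630877: gtcatatcagtttaagaaAATAAAaattgg

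**Figure D1:**
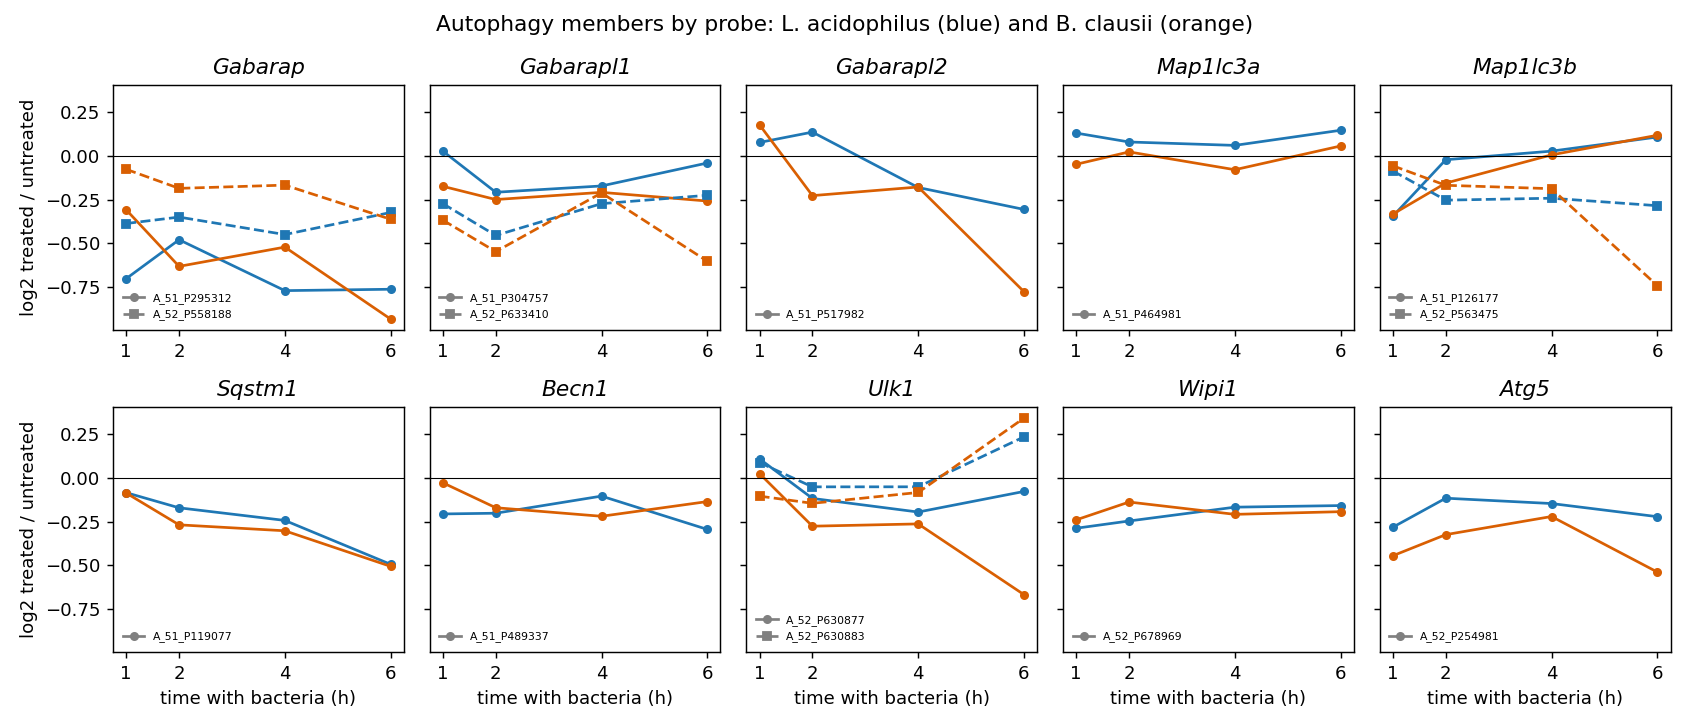
Log2 ratio of treated to untreated RNA (vertical axis) against hours with the bacteria (horizontal axis) for the 14 probes of the 10 genes that passed the filter, 1 array per point, with no error bar because no condition has a second array. Both Gabarap probes and Sqstm1 stay below 0 on all 8 arrays, and the 2 Ulk1 probes part at 6 h.

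With both bacteria the 10 genes changed little and mostly downward. Averaged over the 4 times, 8 of the 14 probes fell with L. acidophilus and 11 fell with B. clausii, and none rose with either. These counts include the dim Wipi1 probe, which passed the filter only through the channel where it is high. Of the 12 probes well above background in both channels on all 8 arrays, 7 and 10 fell, beside 25.2% and 32.2% of all such probes. The fits used limma with Benjamini-Hochberg adjustment over all 21292 probes and a threshold of adjusted p under 0.05. Of all probes tested, 19.9% fell by the same rule with L. acidophilus and 23.9% with B. clausii. Among the 5323 brightest probes, which hold 9 of the 14, the shares were 25.9% and 33.7%. Since the list was chosen with results known, these shares are set beside the counts as a description. The median mean response of the 14 was -0.20 with L. acidophilus and -0.24 with B. clausii, beside 0.00 and -0.01 over all probes. Counted by gene, all measured probes fell for 5 genes with L. acidophilus and 7 with B. clausii. 8 probes, of 7 genes, fell with both. The dim Wipi1 probe is in each of these counts, and shares over all genes were not computed for them. By the brightest probe of each gene, Wipi1 included, 7 and 9 of 10 fell, beside 18.5% and 21.1% of all genes. Without the 6 h or the 2 h B. clausii array, the count of probes that fell with B. clausii was 8, beside 18.8% and 15.5% of all probes. Without the 2 h L. acidophilus array, the count of probes that fell with L. acidophilus was 4, beside 11.3% of all probes.

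No single ratio of the 14 probes reached 2-fold on any array, where 1.55% of all probes reached it on at least 1. 8 of the 14 probes, the dim Wipi1 probe among them, were below 0 on all 8 arrays, as were 12% of all probes. The p-values measure how far the bacteria disagree within times, not the scatter between cultures, which was pooled away.

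**Figure D2:**
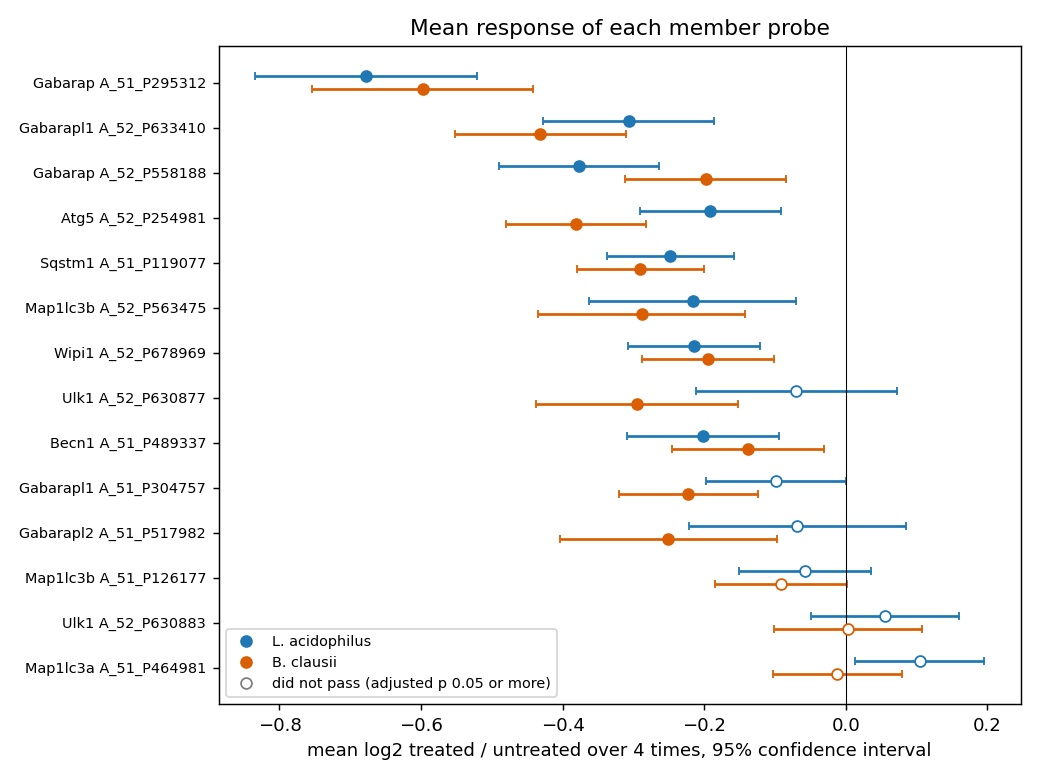
Mean log2 ratio over the 4 times for each probe (horizontal axis), with 95% confidence intervals from the limma fit, for L. acidophilus (blue) and B. clausii (orange). Filled points passed the test: 8 probes with L. acidophilus and 11 with B. clausii, all of them below 0. The dim Wipi1 probe is among them, and its fill and interval are drawn but not read as a result.

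Gabarap, the founding member of its family and a partner of late steps of autophagosome formation, had the largest fall under the main processing, while with the processed signals the dim Wipi1 probe read lower. In order of time, from 1 h to 6 h, probe A_51_P295312 read -0.70, -0.48, -0.77 and -0.76 with L. acidophilus, then -0.31, -0.63, -0.52 and -0.93 with B. clausii, and values of other genes are given in that order too. All 8 arrays were below 0, with the lowest value on the 6 h B. clausii array. Its mean was -0.68 ± 0.07 (SE, 4 arrays; limma adjusted p = 0.000219) with L. acidophilus, a 1.6-fold lower level, and -0.60 ± 0.07 (adjusted p = 0.000202) with B. clausii, 1.51-fold lower. Both calls held under every one of the 25 alternatives.

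The other Gabarap probe, A_52_P558188, moved less. It read -0.39, -0.35, -0.45 and -0.32 with L. acidophilus, and with B. clausii it read -0.08, -0.19, -0.17 and -0.36. The 2 sets overlapped only through the 6 h B. clausii value. It fell with both bacteria in the limma fit, by 0.38 ± 0.05 (adjusted p = 0.000702) with L. acidophilus and by 0.20 ± 0.05 (adjusted p = 0.0114) with B. clausii. The second of these calls was lost when the 6 h array of that bacterium was left out (-0.12, adjusted p = 0.0898) or its 2 h array (-0.19, adjusted p = 0.0754), and at a normexp offset of 0 (-0.18, adjusted p = 0.0553). The first probe lay below the second on 8 of 8 arrays, by 0.13 to 0.57 and by 0.35 on average. Probes of the same gene thus gave falls that differ in size, and the level of this transcript has no single fold here.

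Gabarapl1, a close paralog that is often induced when cells are starved, also went down. Its brighter probe A_52_P633410 read -0.27, -0.45, -0.27 and -0.22 with L. acidophilus, and with B. clausii it read -0.37, -0.55, -0.21 and -0.60. The ranges overlap, and every value was below 0. The means were -0.31 ± 0.05 (limma adjusted p = 0.00235) and -0.43 ± 0.05 (adjusted p = 0.000284), and both falls held under all 25 alternatives. Probe A_51_P304757, the one that resembles the Gabarap probe printed above, read 0.03, -0.21, -0.17 and -0.04 with L. acidophilus. With B. clausii it read -0.17, -0.25, -0.21 and -0.26. It fell with B. clausii (-0.22 ± 0.04, limma adjusted p = 0.00317), and its L. acidophilus mean of -0.10 ± 0.04 did not pass (adjusted p = 0.101). With the deposited local background left unrepaired the B. clausii call was lost (-0.18, adjusted p = 0.0534). How much labelled RNA of the paralog bound to either look-alike probe was not tested.

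Gabarapl2, also known as GATE-16, takes part in fusion of vesicles as well as in autophagy. Probe A_51_P517982, at chr8:114476641-114476700 on mm9, read 0.08, 0.14, -0.18 and -0.31 with L. acidophilus, and with B. clausii it read 0.18, -0.23, -0.18 and -0.78. Values above 0 were confined to the 1 h arrays and the 2 h L. acidophilus array. The B. clausii mean of -0.25 ± 0.07 passed (limma adjusted p = 0.0151), and the L. acidophilus mean of -0.07 ± 0.07 did not (adjusted p = 0.449). The B. clausii fall rested on the 6 h array: without it the mean was -0.15 (adjusted p = 0.144), and without both 6 h arrays -0.08 (adjusted p = 0.386). Leaving out the 2 h array of that bacterium also ended the call (-0.19, adjusted p = 0.142), as did an offset of 0 in normexp (adjusted p = 0.0664), the scanner's processed signals (-0.14, adjusted p = 0.118) and a fit with no time term (adjusted p = 0.182).

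Map1lc3b encodes LC3B, the protein most used to mark autophagosomes, and its 2 probes gave different time courses. The brighter probe A_52_P563475 read -0.09, -0.25, -0.24 and -0.28 with L. acidophilus, and with B. clausii it read -0.06, -0.17, -0.19 and -0.74. All 8 values were below 0, and the lowest stood apart on the 6 h B. clausii array. Its means of -0.22 ± 0.06 (limma adjusted p = 0.0255) and -0.29 ± 0.06 (adjusted p = 0.00627) passed. The L. acidophilus call was lost without the 1 h (-0.18, adjusted p = 0.145), the 2 h (-0.16, adjusted p = 0.193) or the 4 h (-0.17, adjusted p = 0.18) array of that bacterium, and without its 6 h array the mean was -0.34 (adjusted p = 0.00317). It was also lost at a normexp offset of 0 (adjusted p = 0.061), with the deposited local background unrepaired (adjusted p = 0.0569) and with no time term (adjusted p = 0.138). Without the 6 h array the B. clausii mean was -0.16 (adjusted p = 0.034), and that call was lost with no time term (adjusted p = 0.0535).

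Map1lc3b probe A_51_P126177 read -0.34, -0.02, 0.03 and 0.11 with L. acidophilus, and with B. clausii it read -0.33, -0.16, 0.01 and 0.12. It stood below 0 at 1 h and 2 h and above 0 at 4 h and 6 h with both. Neither mean passed the limma test, at -0.06 (adjusted p = 0.291) and -0.09 (adjusted p = 0.103). The difference between the 2 probes went from -0.07 on average at 1 and 2 h to 0.43 at 4 and 6 h and was widest, 0.86, on the 6 h B. clausii array. On mm9 A_51_P126177 lies at chr8:124121771-124121830 and A_52_P563475 at chr8:124119924-124119983.

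Map1lc3a, the LC3A gene, was dim. Its single probe A_51_P464981 was well above background on 8 arrays in the untreated and 6 in the treated channel. It read 0.13, 0.08, 0.06 and 0.15 with L. acidophilus, and with B. clausii it read -0.05, 0.02, -0.08 and 0.06. The 4 L. acidophilus values lay above the 4 B. clausii values, with the nearest pair almost equal, and neither mean passed the limma test (0.10 ± 0.04, adjusted p = 0.0657, and -0.01 ± 0.04, adjusted p = 0.836). The direct difference of 0.12 (95% interval -0.01 to 0.24) did not pass either (adjusted p = 0.258). The L. acidophilus mean depended on the processing: it was 0.22 (adjusted p = 0.0269) at a normexp offset of 0 and -0.071 (adjusted p = 0.167) with the processed signals, and with 1 value per gene its adjusted p was 0.0444. In the processed signals the B. clausii mean was -0.18 (adjusted p = 0.015).

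Sqstm1 encodes p62, the receptor that ties ubiquitin-marked cargo to LC3 and that also binds Keap1. It had the highest signal of the members and read -0.08, -0.17, -0.24 and -0.49 with L. acidophilus, and with B. clausii it read -0.09, -0.27, -0.30 and -0.51. The value was lower at each later time with both bacteria. The means of -0.25 ± 0.04 (limma adjusted p = 0.00163) and -0.29 ± 0.04 (adjusted p = 0.000485) were falls that held under all 25 alternatives.

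Ulk1 is the kinase that starts autophagy when nutrient signals drop. Probe A_52_P630877, which holds the polyadenylation signal printed above, read 0.11, -0.12, -0.19 and -0.08 with L. acidophilus, and with B. clausii it read 0.03, -0.28, -0.26 and -0.67. It fell with B. clausii (-0.29 ± 0.06, limma adjusted p = 0.00483), less so without the 6 h array (-0.17, adjusted p = 0.0276). With L. acidophilus the mean was -0.07 (adjusted p = 0.403), and -0.19 (adjusted p = 0.0214) without the 6 h array of that bacterium. Probe A_52_P630883, which lies upstream of it in the gene at chr5:111213787-111213846 (mm9, minus strand), read 0.09, -0.05, -0.05 and 0.23 with L. acidophilus, and with B. clausii it read -0.10, -0.14, -0.08 and 0.34. Neither of its means passed (0.06, adjusted p = 0.369, and 0.00, adjusted p = 0.969). Up to 4 h the 3′ probe differed from the other by -0.18 to 0.13, and it lay 0.31 and 1.01 below it at 6 h with L. acidophilus and B. clausii.

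Becn1 encodes Beclin 1, a subunit of the lipid kinase complex that marks the site where the vesicle forms. Its probe A_51_P489337, which bridges an intron at chr11:101151771-101152713 (mm9, minus strand), read -0.21, -0.20, -0.10 and -0.29 with L. acidophilus, and with B. clausii it read -0.03, -0.17, -0.22 and -0.13. Every value was below 0 and the ranges overlap. The means of -0.20 ± 0.05 (limma adjusted p = 0.00927) and -0.14 ± 0.05 (adjusted p = 0.0413) passed. The B. clausii call was close to the threshold and was lost under 15 of 25 alternatives, among them each B. clausii array left out (adjusted p of 0.0515, 0.191, 0.362 and 0.0561 without 1, 2, 4 and 6 h, with a mean of -0.08 without 4 h), the 2 h L. acidophilus array left out (adjusted p = 0.0654), and the processed signals (adjusted p = 0.172). The L. acidophilus call was lost under 5, without its 1 h (adjusted p = 0.0753), 2 h (0.0531) or 6 h (0.059) array and with the processed signals (0.0925) or the series matrix values.

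Atg5, a part of the enzyme complex that joins LC3 and Gabarap proteins to lipid, has a single probe, A_52_P254981, at chr10:44083320-44083379 on mm9. It read -0.28, -0.12, -0.15 and -0.22 with L. acidophilus, and with B. clausii it read -0.44, -0.32, -0.22 and -0.54. At each time the B. clausii value was the lower. The falls were 0.19 ± 0.04 on the log2 scale (limma adjusted p = 0.00819) and 0.38 ± 0.04 (adjusted p = 0.000194), the second a 1.3-fold lower level. The L. acidophilus call was lost without its 2 h (-0.20, adjusted p = 0.0536) or 4 h (-0.15, adjusted p = 0.101) array and, at adjusted p = 0.0624, when the deposited local background was used unrepaired.

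Wipi1 encodes a lipid-binding protein of the early vesicle. Probe A_52_P678969 had untreated intensities of 87 to 116 and treated ones of 50 to 64, and was well above background on 3 arrays in the untreated and 1 in the treated channel. It read -0.29, -0.25, -0.17 and -0.16 with L. acidophilus, and with B. clausii it read -0.24, -0.14, -0.21 and -0.19. It passed the filter on low signal through the untreated channel, and a filter passed in that way leans toward low ratios. Its means of -0.21 and -0.19 are therefore a description with no test. With B. clausii the probe was well above background on 2 of 4 arrays in the untreated and 0 in the treated channel. The size depended on the background step, with means of -1.24 and -1.32 in the processed signals and -0.53 and -0.50 at a normexp offset of 0, so no fold is read from this probe.

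No difference between the bacteria passed the test. For L. acidophilus minus B. clausii, 0 of 14 probes passed in the limma fit, as against 1.44% of all probes. At an unadjusted p under 0.05 stood 3: Ulk1 A_52_P630877 at 0.22 (95% interval 0.02 to 0.43, adjusted p = 0.181), Atg5 at 0.19 (0.05 to 0.33, adjusted p = 0.131) and Gabarap A_52_P558188 at -0.18 (-0.34 to -0.02, adjusted p = 0.182). For the largest mean response, Gabarap A_51_P295312, the difference was -0.08 with an interval of -0.30 to 0.14. Median centring in place of loess gave 8 probes that differ, beside 31.7% of all probes, with the median of all probes at 0.17. A missed threshold here does not show that the bacteria act alike, and the bacterium and the slide cannot be told apart.

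**Figure D3:**
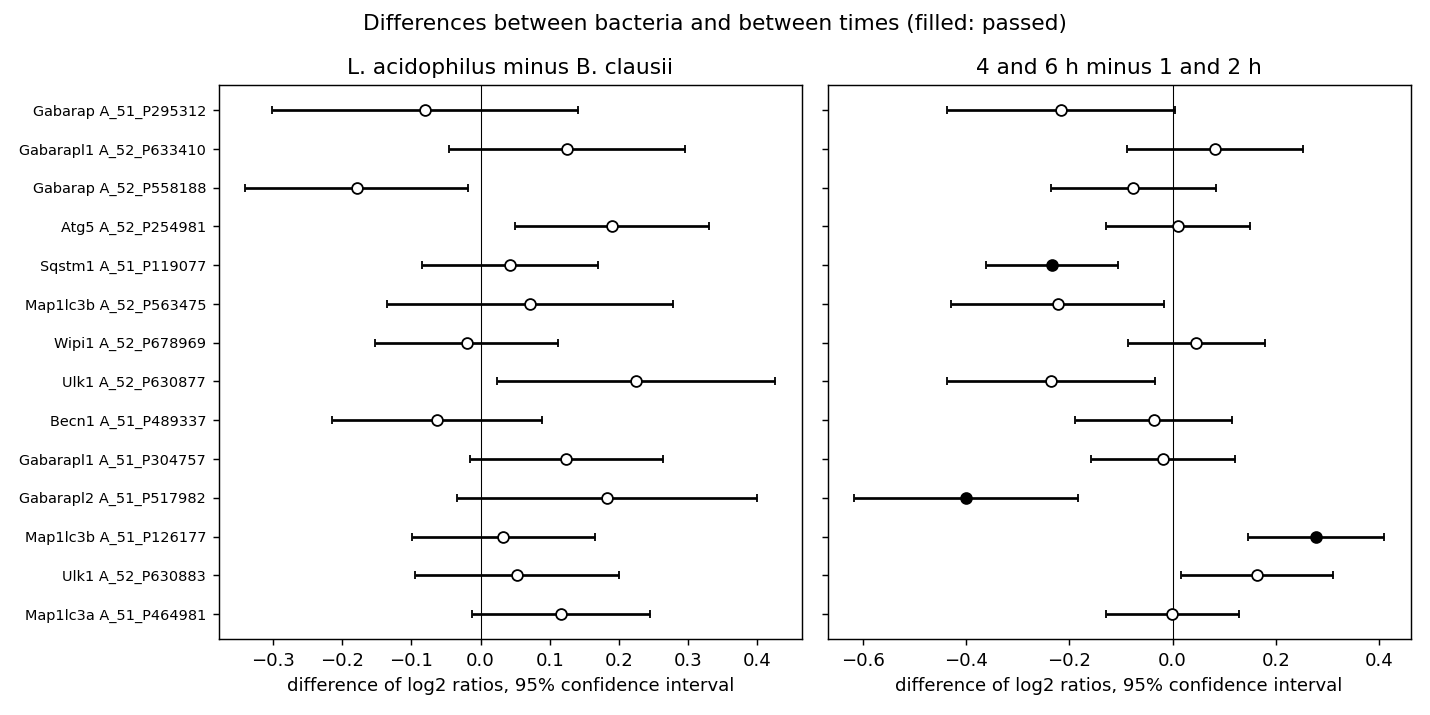
Difference between the bacteria (left) and between late (4 and 6 h) and early (1 and 2 h) arrays (right) in log2 ratio for each probe, with 95% confidence intervals from the limma fit. No point is filled on the left, and Gabarapl2, Sqstm1 and 1 Map1lc3b probe are filled on the right.

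Between early (1 and 2 h) and late (4 and 6 h) arrays, averaged over both bacteria, 3 of 14 probes changed, 2 of them downward and 1 upward. Over all probes 23% changed, 11.3% downward and 11.7% upward. Gabarapl2 fell by 0.40 ± 0.10 (limma adjusted p = 0.0169), a 1.32-fold change. Sqstm1 fell by 0.23 ± 0.06 (adjusted p = 0.0175). Map1lc3b A_51_P126177 rose by 0.28 ± 0.06 (adjusted p = 0.00984), while the other probe of that gene stood at -0.22 ± 0.09 and did not pass (adjusted p = 0.113). Ulk1 showed the same split of probes without passing, at -0.24 ± 0.09 (adjusted p = 0.0887) for the 3′ probe and 0.16 ± 0.07 (adjusted p = 0.106) for the upstream one.

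Each of these 3 calls was lost under several alternatives. With the processed signals of the scanner software none of the 14 passed, beside 6.97% of all probes. Sqstm1 then stood at 0.027 (limma adjusted p = 0.871) in place of -0.23. Gabarapl2 was lost without the 2 h or 4 h L. acidophilus array (-0.34, adjusted p = 0.0876, and -0.34, adjusted p = 0.0859) or the 1 h or 6 h B. clausii array (-0.31, adjusted p = 0.07, and -0.30, adjusted p = 0.0629). Sqstm1 was lost without the 2 h or 4 h array of either bacterium (adjusted p of 0.0938 and 0.0718 with L. acidophilus, 0.0548 and 0.0805 with B. clausii) or the 1 h B. clausii array (adjusted p = 0.0607). Map1lc3b A_51_P126177 was lost without the 2 h (adjusted p = 0.0589) or 4 h (adjusted p = 0.0507) B. clausii array. Without the 6 h L. acidophilus array the count was 6, beside 25.4% of all probes. Added were the other Map1lc3b probe (-0.35, limma adjusted p = 0.00681) and both Ulk1 probes (-0.36 and 0.22, adjusted p = 0.00688 and 0.0427). Whether the change over time differed between the bacteria was tested as an interaction, which no member and 0% of all probes passed in limma, with 267 of 21292 at an unadjusted p under 0.05. On simulated data that test recovered 0% of changes of 0.5 log2 units and 22% of changes of 1, so it had little reach.

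Around the members, 81 further genes of the pathway were grouped by role, and 74 of them had a probe that passed the filter, the brightest taken for each. With L. acidophilus 11 rose, 18 fell and 45 did not pass. With B. clausii 13 rose, 26 fell and 35 did not pass. Their medians were -0.05 and -0.06. By either direction 41% of all probes passed with L. acidophilus and 44.2% with B. clausii. Over all 14820 genes, by the brightest probe of each, 3516 rose and 2735 (18.5%) fell with L. acidophilus. With B. clausii 3415 rose and 3128 (21.1%) fell. The counts by role below stand beside these shares as a description.

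Of the initiation complex that works with Ulk1, 2 of 4 genes fell with each bacterium. Atg101, which steadies the complex, fell with both, to a mean of -0.32 ± 0.04 (limma adjusted p = 0.000868) with L. acidophilus and -0.25 ± 0.04 (adjusted p = 0.00181) with B. clausii. Its 8 ratios ran from -0.36 to -0.14. Of the lipid kinase complex that holds Becn1, none of 7 fell, while 2 rose with L. acidophilus and 1 with B. clausii. Pik3r4, its regulatory subunit, rose to 0.43 ± 0.06 (adjusted p = 0.000967) and 0.48 ± 0.06 (adjusted p = 0.00036), and the means over the probes of the gene were 0.25 and 0.28. Median centring left the second at 0.041 (adjusted p = 0.703).

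Of the conjugation machinery in which Atg5 acts, 1 gene rose and 2 fell with L. acidophilus, and 2 rose and 2 fell with B. clausii, of 10. Atg4a, a protease that prepares Gabarap proteins for lipid joining, fell to -0.27 ± 0.04 (limma adjusted p = 0.00141) and -0.46 ± 0.04 (adjusted p = 6.33e-05), with all 8 ratios between -0.54 and -0.24. With the processed signals the first was -0.16 (adjusted p = 0.0412). Of 8 measured genes that supply membrane, 1 rose and 1 fell with L. acidophilus, and 1 rose and 3 fell with B. clausii. Tmem41b, which moves lipids across the membrane of the endoplasmic reticulum, went from 0.72 at 1 h to -0.70 at 6 h with L. acidophilus and from 0.83 to -0.71 with B. clausii.

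Of 10 measured cargo receptors and adaptors besides Sqstm1, 2 rose and 4 fell with L. acidophilus, and 3 rose and 5 fell with B. clausii. Ncoa4, the receptor for ferritin, fell to -0.25 ± 0.04 with each (limma adjusted p = 0.00192 and 0.00143). Bnip3, a receptor for mitochondria, rose to 0.29 ± 0.04 and 0.33 ± 0.04 (adjusted p = 0.00117 and 0.000364), with 6 h values of -0.32 and -0.36, and its B. clausii mean was -0.066 under median centring. With no time term both calls were lost (adjusted p = 0.283 and 0.207). Of the 10 genes of fusion with lysosomes, 1 rose and none fell with L. acidophilus, and 2 rose and 1 fell with B. clausii.

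Among 10 genes that feed nutrient and energy signals to Ulk1, 3 rose and 3 fell with each bacterium. Ddit4, an inhibitor of the growth kinase mTORC1, had the largest response of these lists. It read 1.1, 1.01, 0.58 and -0.20 with L. acidophilus, and with B. clausii it read 1.26, 1.33, 1.21 and 0.05, with means of 0.63 ± 0.06 (limma adjusted p = 0.000139) and 0.96 ± 0.06 (adjusted p = 8.11e-06). With no time term in the fit the L. acidophilus call was lost (adjusted p = 0.0856). Prkaa1, a catalytic subunit of the energy sensor AMPK, fell to -0.24 ± 0.05 (adjusted p = 0.00356) and -0.42 ± 0.05 (adjusted p = 0.000143), the first of these not without the 4 h L. acidophilus array (-0.20, adjusted p = 0.0524) or with no time term (adjusted p = 0.0988). Mlst8, a subunit of the mTOR complexes, fell with L. acidophilus (-0.33 ± 0.04, adjusted p = 0.000435).

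Of 7 transcription factors known for driving autophagy genes, 5 were measured, and Tfeb and Foxo3 had no probe that passed the filter. With L. acidophilus 3 of the 5 fell and with B. clausii 4, with medians of -0.29 and -0.21. Nfe2l2, which encodes NRF2 and drives Sqstm1 among other genes, fell to -0.39 ± 0.05 (limma adjusted p = 0.000499) and -0.60 ± 0.05 (adjusted p = 2.7e-05). That is the brightest probe, and over the mean of its probes the values were -0.03 (adjusted p = 0.482) and -0.16 (adjusted p = 0.00754). Tfe3, a relative of Tfeb, fell to -0.32 ± 0.05 (adjusted p = 0.00117) and -0.21 ± 0.05 (adjusted p = 0.00644), the second lost without the 2 h (adjusted p = 0.0709) or 4 h (adjusted p = 0.0822) B. clausii array, and both were lost with the deposited local background left unrepaired (adjusted p = 0.0578 and 0.122). Atf4, the factor of amino acid shortage, stood at -0.29 ± 0.07 (adjusted p = 0.00808) and -0.34 ± 0.07 (adjusted p = 0.00352). Its lowest value, -0.98, came at 6 h with B. clausii, and without both 6 h arrays the B. clausii mean was -0.12 (adjusted p = 0.072). Its L. acidophilus call was lost without the 1 h (-0.21, adjusted p = 0.0798), 2 h (adjusted p = 0.0656) or 4 h (adjusted p = 0.069) array, and both calls with no time term (adjusted p = 0.152 and 0.1).

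Of 10 measured NRF2 pathway genes around Sqstm1, 1 rose and 3 fell with L. acidophilus, and 1 rose and 6 fell with B. clausii. Keap1, the adaptor that p62 binds and that marks NRF2 for destruction, read -0.38, -0.35, -0.42 and -0.15 with L. acidophilus, and with B. clausii it read -0.79, -0.69, -0.63 and -0.31. Its means of -0.33 ± 0.05 (limma adjusted p = 0.000846) and -0.61 ± 0.05 (adjusted p = 2.05e-05) were falls under all 26 alternatives. The NRF2 target Gclc, which makes glutathione, went from -0.34 at 1 h to 0.67 at 6 h with L. acidophilus and from -0.78 to 0.59 with B. clausii. Fth1, the ferritin heavy chain, rose to 0.44 ± 0.06 (adjusted p = 0.000923) and 0.28 ± 0.06 (adjusted p = 0.00622), but with the processed signals it stood at 0.15 (adjusted p = 0.0654) and -0.10 (adjusted p = 0.14). Without the 1 h or the 4 h B. clausii array its second call was lost (0.18, adjusted p = 0.0614, and 0.26, adjusted p = 0.0555).

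**Figure D4:**
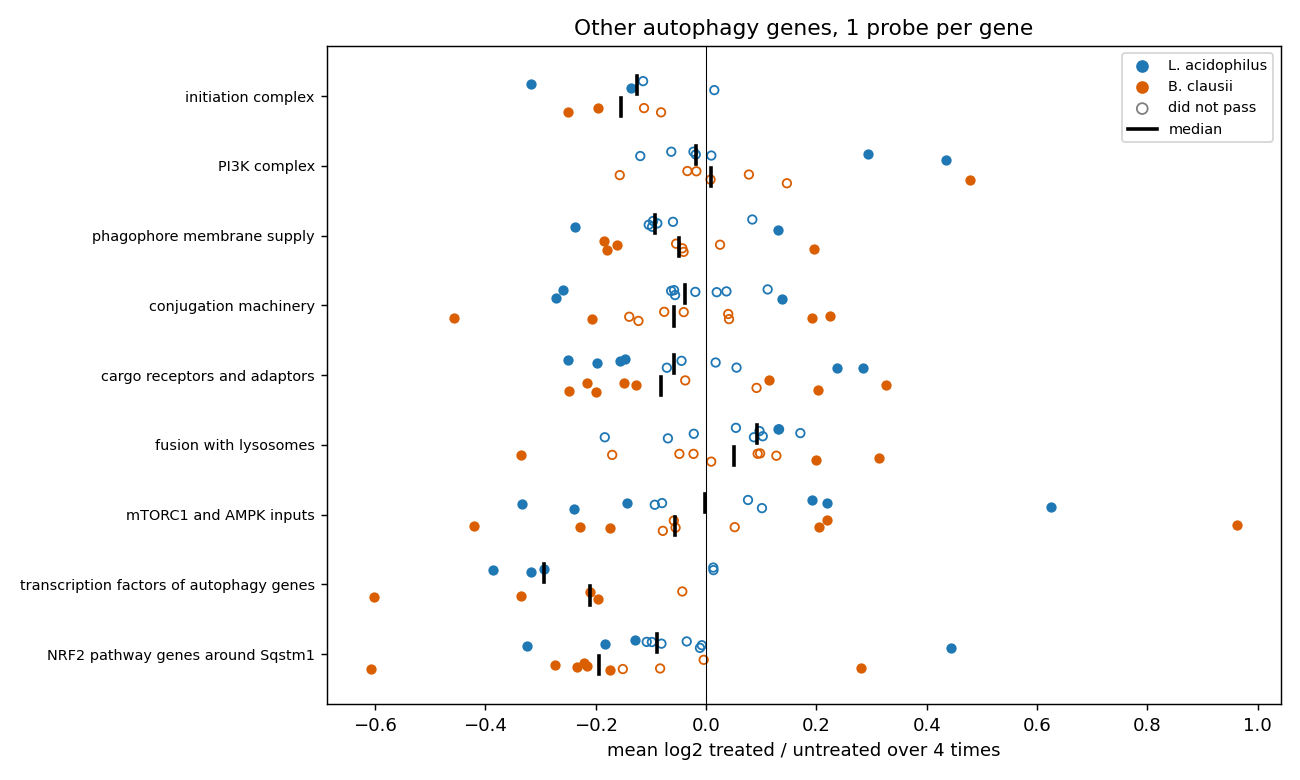
Mean log2 ratio over the 4 times (horizontal axis) of the 74 further genes measured, 1 probe each, by role, for L. acidophilus (blue) and B. clausii (orange), with filled points for genes that passed and a bar at each list's median. Ddit4 is the point farthest to the right and Keap1 and Nfe2l2 are those farthest to the left.

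Among 4463 kept probes of other genes whose 8 ratios had an SD of at least 0.2, those with the course most like Gabarap A_51_P295312 were Gtf3c3, Stk11, Fkbp4, Cd44 and Ifitm6, with Pearson r of 0.94, 0.94, 0.94, 0.93 and 0.92 over the 8 arrays. For Map1lc3a, the probe with the largest positive mean, they were Ccnd2, Terf2, Ankra2, Creb3l2 and Nat8f1, with r of 0.95 each. The 8 ratios of this dim Map1lc3a probe had an SD of 0.08. That is below the 0.09 to 0.14 of repeated spots and the 0.2 asked of the compared probes. Those of Gabarap A_51_P295312 had an SD of 0.197, just below that 0.2. Pearson r takes no account of level. At 1 h with B. clausii the genes listed for Gabarap read 0.16 to 0.34, while A_51_P295312 read -0.31. The 8 arrays share slides and perhaps untreated RNA, and the highest of many correlations are high by selection, so these are descriptions.

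The promoters of 8 of the 10 genes were found in a RefSeq table of GRCm38.p6 (250 bases before to 50 after the start). 5 motifs were searched on both strands of those 300 bases. The E-box CACGTG, a form bound by Tfeb and its relatives, was in 1 of 8 promoters, that of Atg5, and in 7.15% of all 32851 promoters. The antioxidant response core TGACNNNGC was in 1, that of Map1lc3b, and in 12.4% of all. GTAAACA, the FOXO motif, and TGATGNAA, the ATF4 motif, were in 0 of 8, beside 3.65% and 3.97% of all. The loose kappa-B pattern, GGG and CC with 5 bases of any kind between them, was in 6 of 8 and in 50.8% of all. The bases upstream of the start are shown for Atg5 (chr10:44268089-44268338, plus strand), with its E-box in capitals, and for Gabarap (chr11:69991120-69991369, plus strand), whose probe fell most under the main processing, where none of the 5 motifs was found.

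Atg5: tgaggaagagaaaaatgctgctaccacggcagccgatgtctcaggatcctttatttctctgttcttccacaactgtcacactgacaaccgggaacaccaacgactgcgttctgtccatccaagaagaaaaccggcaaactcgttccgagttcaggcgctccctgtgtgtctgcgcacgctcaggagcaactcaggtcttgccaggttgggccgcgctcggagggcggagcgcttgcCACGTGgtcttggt

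Gabarap: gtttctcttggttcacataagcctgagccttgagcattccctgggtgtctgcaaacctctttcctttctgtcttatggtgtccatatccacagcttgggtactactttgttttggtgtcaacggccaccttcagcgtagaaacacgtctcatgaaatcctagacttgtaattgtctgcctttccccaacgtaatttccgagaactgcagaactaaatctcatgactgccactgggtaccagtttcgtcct

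A motif match is a stretch of letters and was not tested for binding.

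**Figure D5:**
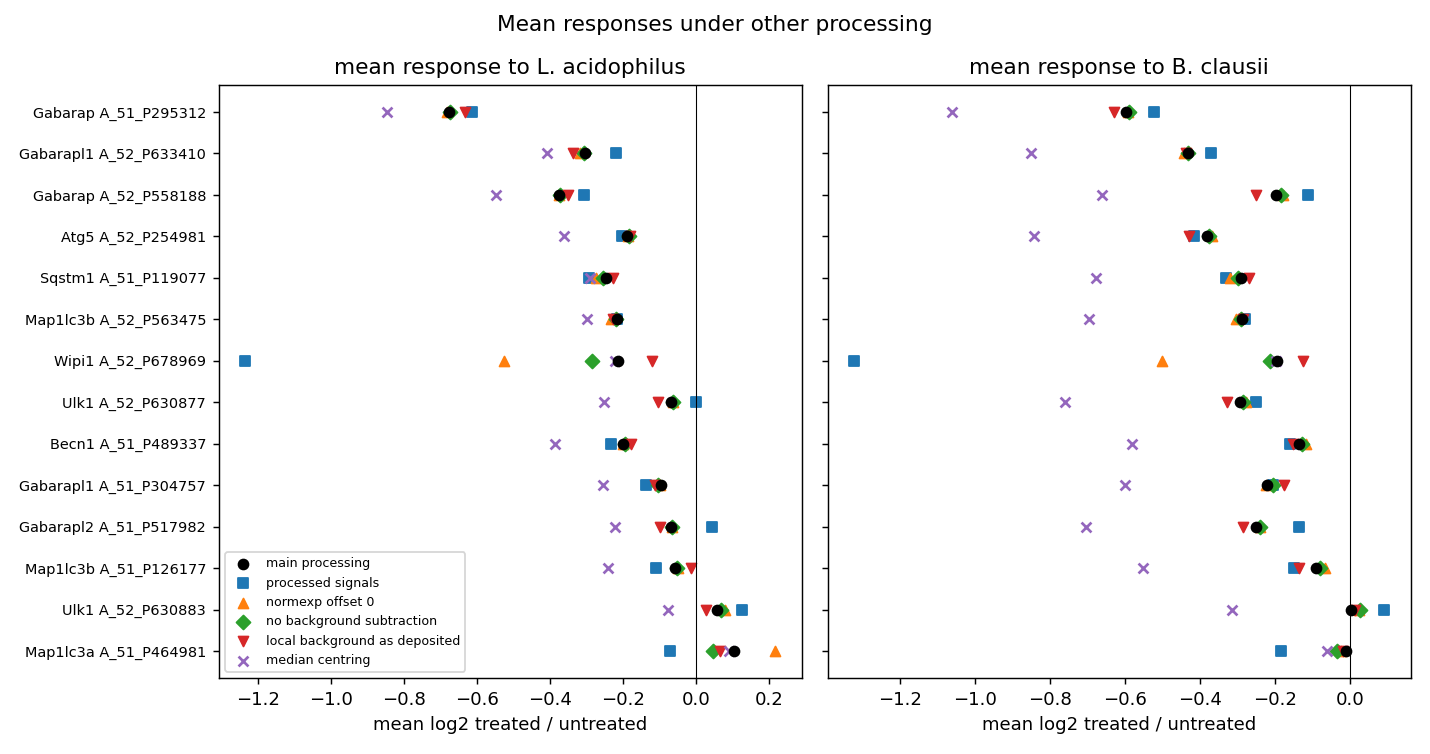
Mean log2 ratio of each probe (horizontal axis) under the main processing and 5 other ways of computing the ratios, for L. acidophilus (left) and B. clausii (right). Gabarap A_51_P295312 lies between -1.06 and -0.52 in all of them, Wipi1 moves most with the background step, and median centring moves most probes to the left with B. clausii.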

How the data were processed

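The deposited spot values are foreground mean and local background median intensity in each channel, per the file headers. The authors' scanner software also wrote processed intensities, background-subtracted and dye-normalized, and log10 ratios of red to green, per the file headers. The series matrix holds the same log10 values rounded (r of 0.999999). The headers give Feature Extraction 10.7.3.1, and the submitters' processing notes give 10.5.1.1. Flags of 0 or 1 for each spot were deposited beside them.

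New ratios were made from the unprocessed values. A local background over 3 times its array's median, and called an outlier by the software, was replaced by the median and its spot dropped (0 to 150 per array). Background was corrected by normexp (offset 50), and ratios were normalized by loess within arrays in limma 3.58.1 (R 4.3.3, with statmod 1.5.0 and the data.table package, version 1.17.8). Spots with flags, 0.473% to 0.717% of an array, were dropped and replicate spots averaged. 21292 probes passed the filter on all 8 arrays. Limma fitted bacterium and time (3 residual degrees of freedom, prior 6.23), and the 4 cells of bacterium and phase for the interaction (4, prior 6.63), with Benjamini-Hochberg adjustment. Values after ± are standard errors. With 1 array left out, the additive model fills its missing cell. On simulated data, 100% and 99% of changes of 0.5 log2 units were recovered for the 2 mean responses, 84% for their difference and 95% for late minus early. False calls made up 4.76%, 7.01%, 6.6% and 6.25% of the calls in that order. The simulated noise was normal and independent between arrays, with changes planted in few probes. These arrays need not match that setting.

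The members and lists were chosen with earlier results of these data known. Named genes were all members and their probes, up to 3 genes per list and comparison with the largest change past the threshold, and the 5 probes most like the largest member response in each direction. Of the list genes, the text describes only some, with no stated rule for that choice, and the plot by role shows all. Tried instead were the scanner software's processed signals, the series matrix, other background and normalization steps, other filters, 1 value per gene, other models and thresholds, and leaving out arrays or times. Depth has no count on arrays, and their number limits the precision. Probes were named by the files, with older symbols matched through a table of assembly GRCm38.p6 (27668 by accession). The result of another marker list is not reported here.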

Additional observations from a re-analysis of the deposited data

Results flagged for a closer look

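Late (4 and 6 h) and early (1 and 2 h) arrays differed in the limma fit for 3 of the 14 probes of the 10 genes. The log2 difference was -0.40 for Gabarapl2, 0.28 for Map1lc3b A_51_P126177 and -0.23 for Sqstm1. No explanation was weighed.

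The same comparison also passed for 28 of the 74 further genes, 21 of which are named here, beside 23% of all probes (11.3% lower and 11.7% higher). Lower late than early were Tmem41b (-0.95), Ddit4 (-0.76), Bnip3 (-0.61), Wdfy3 (-0.47), Atf4 (-0.34), Rubcn (-0.31), Atg2b (-0.30), Rb1cc1 (-0.24) and Fyco1 (-0.22). Higher late than early were Gclc (0.71), Txnrd1 (0.45), Rab7 (0.43), Tsc1 (0.43), Vps18 (0.42), Mtor (0.40), Stx17 (0.38), Hmox1 (0.36), Atg16l1 (0.33), Wdr45 (0.33), Mitf (0.21) and Uvrag (0.21). Without both 6 h arrays, 7.59% of all probes passed. Tmem41b (-0.56, limma adjusted p = 0.00581), Wdfy3, Mtor, Tsc1, Rubcn and Atg16l1 then kept their direction and their call. All the other genes named here lost their call. Among them were Gclc (0.33, adjusted p = 0.0505), Bnip3 (-0.27, adjusted p = 0.0553), Stx17 (0.20, adjusted p = 0.103) and Ddit4 (-0.28, adjusted p = 0.131).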

How the results depend on the processing

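Precision is limited by 1 array per condition, by unswapped dyes and by the loess step, which assumes that most probes do not change at any brightness. No paired analysis by replicate number was possible because each condition has 1 array. The arrays of the 2 bacteria are matched by time, through the time term of the fit, and 0 of 14 probes passed the interaction with time as a block. For single probes and genes over all alternatives, 3064 values kept their side of the threshold, 355 no longer passed, 27 newly passed and 16 reversed. A reversal was counted only where the main or the other fit passed. Changes of direction with no pass in either fit are among the 3064. Gabarapl2 with L. acidophilus, at 0.0439 with the processed signals, is 1 of them. The cause was not tested.

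The count of probes of the 10 genes with L. acidophilus (8) was 5 with the local background as deposited, where 7.33% of all probes fell. It was 4 to 8 with single arrays left out. The lowest count came without the 2 h L. acidophilus array, where 11.3% of all probes fell. With B. clausii (11) it stayed within 1.5 times under every alternative run. The difference between the bacteria (0) was 8 under median centring, where 31.7% of all probes passed. That step shifted the median of all probes to -0.0868 with L. acidophilus and -0.24 with B. clausii. With it 32% and 59.3% of all probes fell, with 12 and 13 of the 14 and member medians of -0.27 and -0.67. The late minus early count (3) was 0 with the processed signals, the series matrix values, the local background as deposited and no time term, and 0 without both 1 h or both 6 h arrays. Of all probes, 6.97%, 6.94%, 6.86%, 8.87%, 7.05% and 7.59% passed in that order. The count was 1 at a normexp offset of 0 and under median centring, beside 13.5% and 19.9% of all probes. With single arrays left out it was 1 to 6, beside 11% to 25.4%. Probes past the fold rule on any array (0 at 2-fold) were 6 with the processed signals and with the series matrix values, 8 under median centring and 9 at 1.5-fold.

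For the 74 further genes, the L. acidophilus count (29) was 15 with the local background as deposited, 12 with no time term, 18 without both 4 h arrays and 15 to 32 with single arrays left out. Of all probes, 12.6%, 20.5%, 28.6% and 21.7% to 45.4% passed in that order. The B. clausii count (39) was 25, 17 and 68 with the local background as deposited, no time term and median centring, and 24 to 46 with single arrays left out. Of all probes, 21.9%, 24.1%, 64.9% and 27.1% to 48% passed in that order. The difference between the bacteria (0) gave 40 under median centring, 1 with scaling between arrays, 3 with both channels required on all 8 arrays and 3 at adjusted p under 0.1. Over all probes the shares were 31.7%, 1.71%, 4.05% and 5.22% in that order. Late minus early (28) gave 12 with the processed signals and the series matrix values, 11 with the local background as deposited, 13 with no time term, 12 without both 1 h and 11 without both 6 h arrays, and 15 to 27 with single arrays left out. Of all probes, 6.97%, 6.94%, 6.86%, 8.87%, 7.05%, 7.59% and 11% to 25.4% passed in that order.

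The 16 reversals counted above are listed here, and changes of direction with no pass in either fit are left out. Reversed under median centring were the L. acidophilus means of Atg16l2 (-0.0195), Snap29 (-0.0557) and Tmem41b (-0.0123). So were the B. clausii means of Ulk1 A_52_P630883 (-0.31), Bnip3 (-0.0658), Atg16l1 (-0.23), Epg5 (-0.0866), Vps39 (-0.23) and Tmem41b (-0.25). Without both 1 h arrays Tmem41b was at -0.0636 and -0.015 (L. acidophilus and B. clausii). With the processed signals and the series matrix values Fth1 with B. clausii was -0.10 and -0.10, and Sqstm1 late minus early was 0.027 and 0.0273. Over the mean of its probes Fyco1 late minus early was 0.0538.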
